A study of Mus musculus with 28 samples.

Results

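Ionotropic glutamate receptors were examined through the genes of 10 subunits, 6 of the NMDA receptor (Grin1, Grin2a, Grin2b, Grin2c, Grin2d and Grin3a) and 4 of the AMPA receptor (Gria1, Gria2, Gria3 and Gria4). They were picked by name from the 23219 genes and unnamed probes that the arrays measured. Earlier results of these data were known at that choice, and all 10 were kept whatever their values. Each of the 10 was read by 1 probe. The arrays compared whole cerebellum of Ts1Cje mice with that of euploid mice at postnatal days 0, 3, 7 and 10 (P0, P3, P7 and P10), in animals labelled as B6EiC3SnF1/J A/a. Ts1Cje mice carry an extra copy of the part of mouse chromosome 16 (Mmu16) between Sod1 and Znf295, attached to Mmu12 with a partial loss of that chromosome, and serve as a model of Down syndrome. They were bred from Ts1Cje fathers and wild-type mothers on a mixed B6C3SnF1/Orl background, so that all groups share a segregating background. None of the 10 subunit genes lies in the trisomic segment. Grin2a is on Mmu16 but nearer the centromere, where Ts1Cje mice have 2 copies. The other genes are on chromosomes 2 (Grin1), 6 (Grin2b), 11 (Grin2c and Gria1), 7 (Grin2d), 4 (Grin3a), 3 (Gria2), 9 (Gria4) and X (Gria3).

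Each of the 28 arrays hybridised 1 Ts1Cje and 1 euploid cerebellum, 1 labelled with the red dye Cy5 and 1 with the green dye Cy3, so that 56 mice were used. On 16 arrays both mice were of the same stage, 4 arrays for each stage. On the other 12 the mice were of neighbouring stages, in both directions. An array is named here by the stage of its Ts1Cje mouse and then of its euploid mouse, so P7/P10 had a P7 Ts1Cje and a P10 euploid cerebellum. The series describes each array as a pairing of a male with a female, and the sample labels do not say which was which. The 28 arrays held 11354 to 23972 probe values, with a median of 22159, and the standard deviation (SD) of their log2 ratios ranged between 0.421 and 1.76. The 3 arrays with the fewest values, P10/P7 replicate 2 (11354 values, SD 1.76), P10/P10 replicate 4 (16898 values, SD 1.42) and P0/P0 replicate 1 (18114 values), carried several of the most extreme subunit ratios and are named beside them. The array P7/P7 replicate 4 has 1 label that gives its euploid mouse as P3. Markers of Purkinje cells (Calb1, on 27 arrays) and granule neurons (Gabra6, on 26) gave values, but so did Emx1 (26 arrays) and Neurod6 (24 arrays) of the forebrain. Having a value therefore does not check the tissue label. The files hold ratios and no signal levels, so the levels of different subunits could not be ranked. Stages could be compared for 1 subunit only through the 12 arrays that paired neighbouring stages. In whole tissue, fewer cells of a type and less RNA per cell cannot be told apart.

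NMDA receptors are calcium-permeable glutamate receptors built from the obligatory subunit encoded by Grin1 together with subunits encoded by Grin2a to Grin2d or Grin3a. Granule neurons of the rodent cerebellum are a textbook case of a developmental subunit switch: immature cells use the Grin2b product, and mature cells take up those of Grin2a and Grin2c. AMPA receptors carry most fast excitatory transmission, are assembled from the Gria1 to Gria4 products, and are kept nearly impermeable to calcium by the edited Gria2 subunit. In the cerebellum, Gria1 and Gria4 are typical of Bergmann glia, Gria2 and Gria4 of granule neurons, and Gria2 and Gria3 of Purkinje cells.

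The RefSeq promoter table (GRCm38.p6, from 250 bases before to 50 after the gene start) held 5 of the 10 genes, Grin1, Grin2c, Grin2d, Gria2 and Gria4, all on the minus strand. The stretches of Grin1 and Grin2c are shown because the genotype and dye results turn on these genes, and because they were the only ones of the 5 with a GC box, the letters GGGCGG searched on both strands. Grin1 had 1 GC box and Grin2c had 3, and matches could overlap. At least 1 was present in 35.7% of the 32851 promoters of the same length, and 3 or more in 10.7%. Each line gives 100 bases before to 30 after the start, 5′ to 3′, with GC boxes in capitals. The Grin1 stretch is chr2:25319158-25319287 and the Grin2c stretch is chr11:115267214-115267343.
Grin1: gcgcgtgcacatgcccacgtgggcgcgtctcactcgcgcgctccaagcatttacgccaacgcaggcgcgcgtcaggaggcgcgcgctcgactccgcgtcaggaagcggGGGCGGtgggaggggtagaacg
Grin2c: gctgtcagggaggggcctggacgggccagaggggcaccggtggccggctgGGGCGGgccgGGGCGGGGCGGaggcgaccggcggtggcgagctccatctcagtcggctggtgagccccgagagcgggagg
The sources of the study differ on which receptor gene was followed by quantitative PCR. Its methods name NR1 (Grin1). Its primer sheet has a row for GluR1, the older name of Gria1 on chromosome 11, and none for NR1. Outside the trisomic segment, the paper reports significant PCR differences at P0 for Shh and Ptch1 only, and so for neither receptor gene. The GluR1 pair is shown in lower case as the only designed sequences found for a member.
GluR1 primer 1: agggatcgacatccagagag
GluR1 primer 2: tgcacatttcctgtcaaacc

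The first comparison asked whether any subunit differed between Ts1Cje and euploid cerebellum. No subunit differed by the fit across all genes. Of the 10, none had a Benjamini-Hochberg adjusted p below 0.05 in limma for the mean of the 4 stages, beside 0.018% of the 22225 genes and probes tested, nor at P0 (0%), P3 (0.0045%), P7 (0%) or P10 (0%). None differed in its genotype effect between the stages (0% of all). By unadjusted p below 0.05, 1 of 10 was found for the mean (Grin1, beside 4.08% of all), 1 at P0 (Grin2a, beside 4.43%), none at P3 (5.61%) or P7 (1.73%), 1 at P10 (Grin1, beside 5.21%) and none between stages (3.08%). With 10 genes, 1 is close to these background shares. The median log2 ratio of the 10, Ts1Cje minus euploid, was 0.018 for the mean of the stages, against -0.0023 over all genes. By stage it was -0.04 at P0, 0.08 at P3, -0.02 at P7 and 0.05 at P10.

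The confidence intervals give the precision of the array ratios. They cover only the spread between arrays, not how closely array ratios follow differences in RNA. For 7 of 10 subunits (Grin1, Grin2b, Grin2d and the 4 AMPA subunits), the 95% confidence interval of the mean ratio lay between 0.667 and 1.5, as it did for 63.9% of all genes. At single stages such narrow intervals were found for 4 subunits at P0, 4 at P3, 6 at P7 and 5 at P10, where the shares over all genes were 15.1%, 17.5%, 19.2% and 11.8%. Grin2a, Grin2b, Grin2c and Grin3a were outside that range at every single stage.

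**Figure D1:**
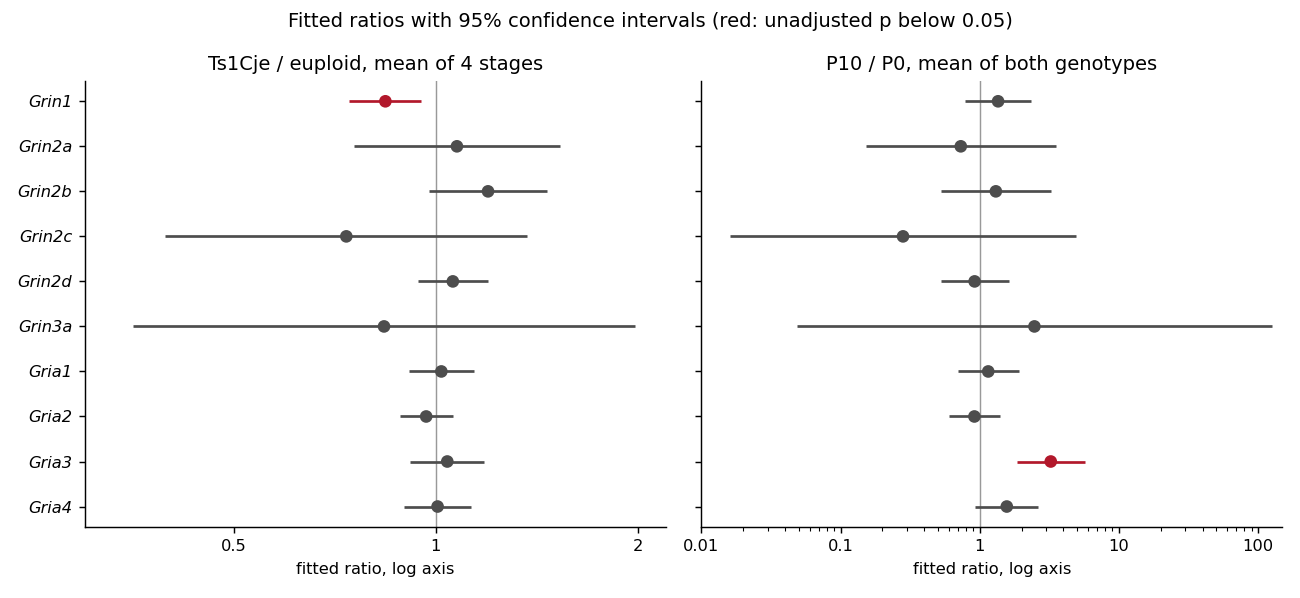
Fitted ratios of the 10 subunits with 95% confidence intervals on log axes, for Ts1Cje over euploid as the mean of the 4 stages (left) and for P10 over P0 (right), with unadjusted p below 0.05 in red. Grin1 at 0.841 is the only red point on the left and Gria3 at 3.24 the only one on the right, and the intervals of Grin2c and Grin3a are among the widest in both.

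Grin1 encodes the subunit that every NMDA receptor needs. On the P0/P0 arrays its log2 ratios, Ts1Cje minus euploid, were -0.0013, -0.20, -0.50 and -0.19. On the P3/P3 arrays with a value they were -0.41, -0.57 and -0.07. On the P7/P7 arrays they were -0.13, 0.33, -0.27 and 0.20. On the P10/P10 arrays they were 0.0023, -0.31, -0.17 and -1.42. Ts1Cje was thus the lower of the pair on 12 of 15 same-stage arrays, including all with a value at P0 and P3, while the P7 arrays were split. At least 12 arrays on 1 side of 0 were found for 5.61% of the genes and probes with 15 or more same-stage values. The mean over these arrays was -0.25 ± 0.40 (SD, n = 15). The 2-sided exact sign-flip permutation p was 0.0159 unadjusted, and 0.159 adjusted over the 20 such tests run on the subunits. An unadjusted sign-flip p below 0.05 was reached by 1 of 10 subunits and by 4.93% of all genes.

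The fitted Grin1 ratio was 0.841 (95% interval 0.743 to 0.952), and it ranked 139 of the 22225 genes and probes by p (limma unadjusted p = 0.00823, adjusted p = 0.993). The P10 estimate was a log2 ratio of -0.50 (standard error, SE, 0.202), and rested on P10/P10 replicate 4, 1 of the 3 sparsest arrays. Without that array the P10 estimate was -0.26 (limma unadjusted p = 0.204) and the mean was -0.20 (limma unadjusted p = 0.018). Without all 3 sparsest arrays the mean was -0.15 (limma unadjusted p = 0.0281) and the P10 estimate was -0.11 (unadjusted p = 0.503). Ts1Cje was lower with either dye, averaging -0.35 over the 7 same-stage hybridisations with Ts1Cje on Cy5 and -0.16 over the 8 with Ts1Cje on Cy3. The same held in both title series of the arrays, with -0.18 on the 6 titled ASJ and -0.30 on the 9 titled ATJ. The Cy5 mean and the ATJ mean both include the -1.42 of P10/P10 replicate 4.

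**Figure D2:**
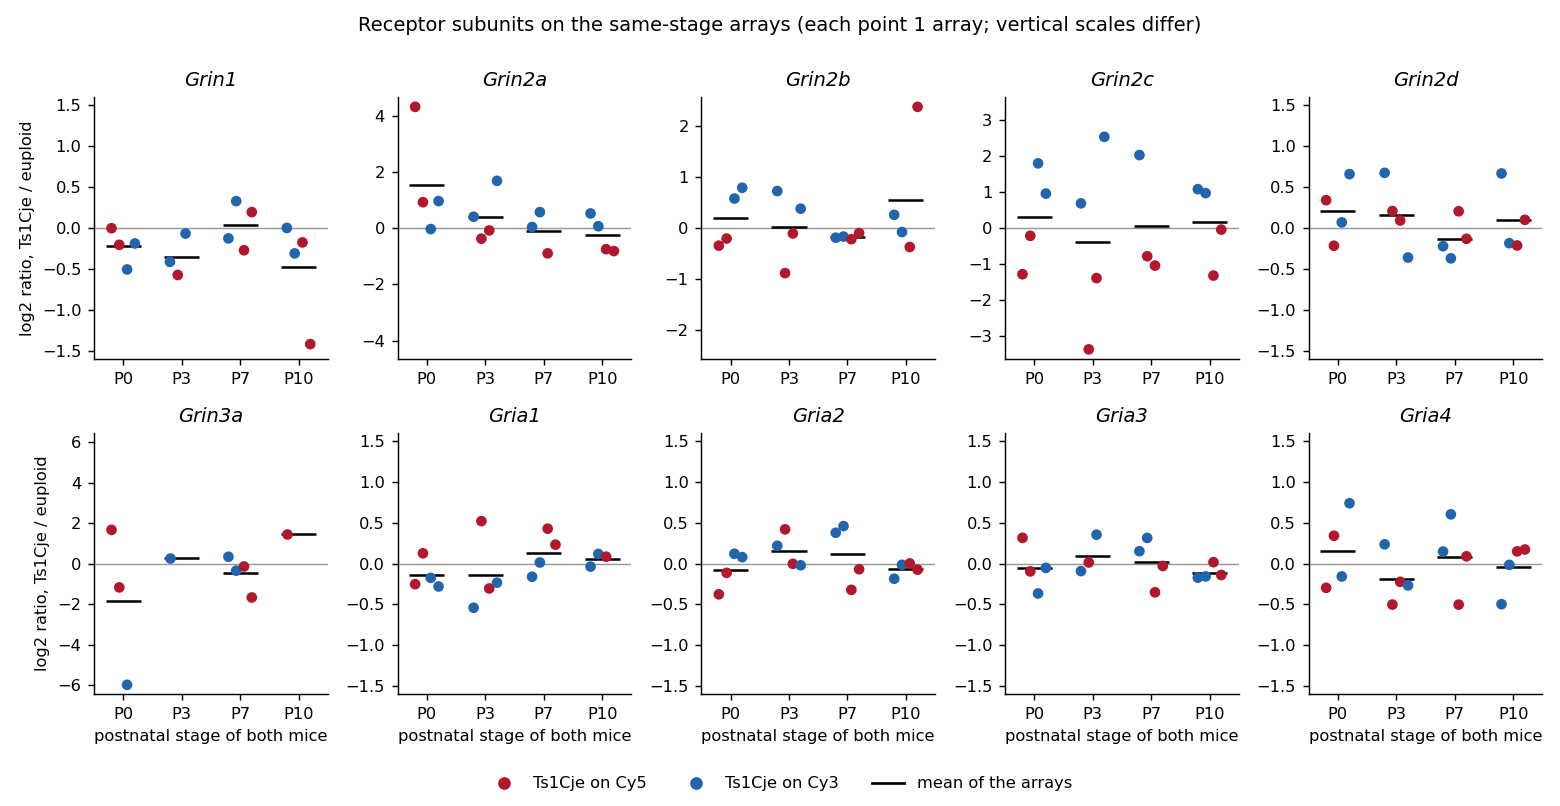
Log2 ratio of Ts1Cje over euploid for each subunit on the 16 same-stage arrays (vertical axes, scales differ) by stage (horizontal axes), 1 point per array, red with Ts1Cje on Cy5 and blue with Ts1Cje on Cy3, bars for means. Grin1 lies below 0 on 12 of 15 arrays, and the red and blue points of Grin2c do not overlap.

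The Grin2 subunits set the kinetics and magnesium block of the NMDA receptor. Grin2a had log2 ratios of 4.31, 0.92, -0.03 and 0.96 on the P0/P0 arrays. The first of these is P0/P0 replicate 1, a sparse array, and stands far above the other 3. The fitted P0 difference was 1.21 (SE 0.578, limma unadjusted p = 0.047), and without that array it was 0.40 (limma unadjusted p = 0.465). Leaving out each array in turn, its unadjusted p was below 0.05 in 12 of 28 fits. At P10 the Grin2a ratios were 0.52, 0.07, -0.75 and -0.82, on both sides of 0. Over all stages Grin2a was at 0.10 (SE 0.247), with an interval of the ratio from 0.754 to 1.53.

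Grin2b, the subunit of immature granule neurons, had a fitted log2 difference of 0.26 (SE 0.141), a ratio of 1.20 with an interval from 0.977 to 1.46. Its P10/P10 ratios were 0.26, -0.08, -0.37 and 2.37, the last on the sparse array P10/P10 replicate 4. Without that array the mean was 0.15 (limma unadjusted p = 0.213) and the P10 estimate was -0.02, where all arrays gave 0.48. The 4 ratios at P7 were close together, between -0.22 and -0.10. Ts1Cje was the higher of the pair on 6 of 16 same-stage arrays.

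Grin2d, expressed early in many neurons, had log2 ratios between -0.37 and 0.68 over 16 same-stage arrays, above 0 on 9. Its fitted ratio was 1.06 (interval 0.940 to 1.20). Grin3a, whose product lowers calcium entry, gave a value on only 15 of the 28 arrays, fewer than all but 0.36% of the genes tested. Its 9 same-stage log2 ratios ran between -5.99 and 1.66, and its fitted interval from 0.353 to 1.98 leaves the direction of any difference unknown.

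Grin2c, the subunit of mature granule neurons, had ratios that sorted by dye. On the 8 same-stage arrays with Ts1Cje on Cy5 its log2 ratios were all negative, between -3.37 and -0.04, with a mean of -1.18 ± 1.02 (SD). On the 7 with Ts1Cje on Cy3 they were all positive, between 0.69 and 2.53, with a mean of 1.44 ± 0.69 (SD). These ranges do not overlap, so that the Ts1Cje over euploid ratio changed sign with the labelling at every stage. Counting the cross-stage arrays, the Cy5 signal was below the Cy3 signal on 26 of 26 arrays, a pattern of 1 sign on all arrays that 0.258% of genes with at least 24 values had. A dye term added to the fit was -1.58 for Grin2c (SE 0.27, limma adjusted p = 0.000761), which is Cy3 over Cy5 by 2.99-fold (95% interval 2.03 to 4.42). It brought the residual SD to 1.44, against 2.3 without it. Such a dye term passed for 1 of 10 subunits and for 8.01% of all genes. The adjusted p of the other 9 ranged from 0.239 to 0.995. With the dye term the mean genotype difference of Grin2c was -0.30 (SE 0.272, limma unadjusted p = 0.279), against -0.44 (SE 0.432) without it.

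Among the AMPA subunits no genotype difference was found, and the intervals were narrow. Gria2, which sets calcium permeability, had the narrowest, with a ratio of 0.967 (interval 0.884 to 1.06). Its 16 same-stage log2 ratios lay between -0.38 and 0.46, with 7 above 0. Gria1 had a ratio of 1.02 (interval 0.911 to 1.14), Gria3 one of 1.04 (0.916 to 1.18) and Gria4 one of 1.01 (0.896 to 1.13). Their same-stage log2 ratios stayed between -0.54 and 0.74, with 6 to 8 arrays of each above 0. The 4 intervals together span 0.884 to 1.18.

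The subunits differed greatly in how far their ratios spread over the arrays. The SD of the log2 ratio over all arrays was 0.233 for Gria2, lower than for all but 0.94% of genes tested, 0.345 for Gria1, 0.362 for Grin2d, 0.412 for Grin1 and 0.414 for Gria4. It was 0.552 for Gria3 and 0.7 for Grin2b, both below the median of 0.833 over all genes. Grin2a (1.49), Grin3a (1.77) and Grin2c (2.21) lay above the upper quartile of 1.17. For Grin2c much of this spread went with the dye, as given by its residual SD with and without the dye term.

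**Figure D3:**
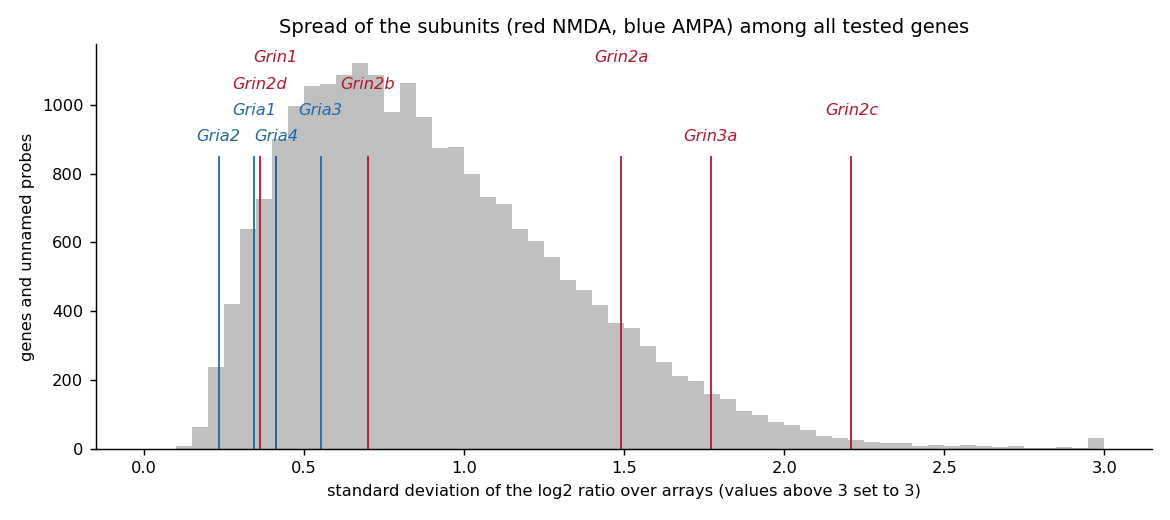
Histogram of the SD of the log2 ratio over arrays (horizontal axis, values above 3 set to 3) for all tested genes and unnamed probes, with vertical lines at the NMDA (red) and AMPA (blue) subunits. Gria2 at 0.233 stands at the lower end, and Grin2a, Grin3a and Grin2c stand above 1.17, the upper quartile.

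The second comparison was between ages, and drew on the 12 cross-stage arrays, on which the older and the younger mouse were of different genotypes in both directions. Steps were fitted as the mean of both genotypes and added up for P0 to P10. No subunit passed the adjusted threshold for P0 to P3 (0.036% of all genes did), P3 to P7 (1.26%), P7 to P10 (0.0045%) or P0 to P10 (0.045%). By unadjusted p below 0.05 there was none for P0 to P3 (7.25% of all), none for P3 to P7 (12.9%), 1 for P7 to P10 (Gria3, beside 9.09%) and 1 for P0 to P10 (Gria3, beside 8.05%). The median change of the 10 subunits over P0 to P10 was 0.29 on the log2 scale, older minus younger, against 0.02 over all genes.

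Gria3, an AMPA subunit of Purkinje cells that is encoded on the X chromosome, had the most one-sided age ratios of the 10. Its log2 ratios, older minus younger, were 0.10 and 0.98 on the P3/P0 arrays and 0.09 and 0.64 on the P0/P3 arrays. Between P7 and P3 they were 0.37 and 0.70 on the P7/P3 arrays, and 0.56 and -0.0072 on the P3/P7 arrays. Between P10 and P7 they were 0.23 and 2.06 on the P10/P7 arrays, and 0.27 and 0.82 on the P7/P10 arrays. The older mouse was the higher on 11 of 12 arrays, whichever genotype it had, and the value of 2.06 on P10/P7 replicate 2 was far above the rest. At least 11 arrays on 1 side were found for 1.06% of the genes with a value on all 12. The mean was 0.57 ± 0.56 (SD, n = 12). Its 2-sided exact sign-flip permutation p was 0.000977 unadjusted, and 0.0195 adjusted over the 20 tests on the subunits. An unadjusted sign-flip p below 0.05 was reached by 1 of 10 subunits and 5.75% of all genes.

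The fitted Gria3 step was 0.45 for P0 to P3 (limma unadjusted p = 0.0603) and 0.40 for P3 to P7 (unadjusted p = 0.0886). For P7 to P10 it was 0.84 (SE 0.227, limma unadjusted p = 0.00119, adjusted p = 0.221). Over P0 to P10 the difference was 1.70 (SE 0.394), or 3.24-fold (95% interval 1.84 to 5.70), with a limma adjusted p of 0.18, and ranked 33 by p. Without P10/P7 replicate 2, the array with the fewest values of all, the last step was 0.42 (limma unadjusted p = 0.0524) and the P0 to P10 difference 1.27 or 2.41-fold (unadjusted p = 0.000622). Read for euploid mice, the fit gave 1.68 for P0 to P10, and read for Ts1Cje mice it gave 1.71. Those fits share arrays, since each array holds a mouse of either genotype. Arrays titled ATJ gave 1.91 (limma unadjusted p = 0.00292). Those titled ASJ gave 0.94, from 3 cross-stage arrays, 1 for each step. Since the sexes on an array differed and Gria3 is X-linked, the ratio of Xist was added as a covariate on the 26 arrays that had it, which gave 1.04 (limma unadjusted p = 0.0237). The same arrays without the covariate gave 1.27 (limma unadjusted p = 0.000657). The genotype difference of Gria3 at single stages was between -0.03 and 0.14, and none passed.

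**Figure D4:**
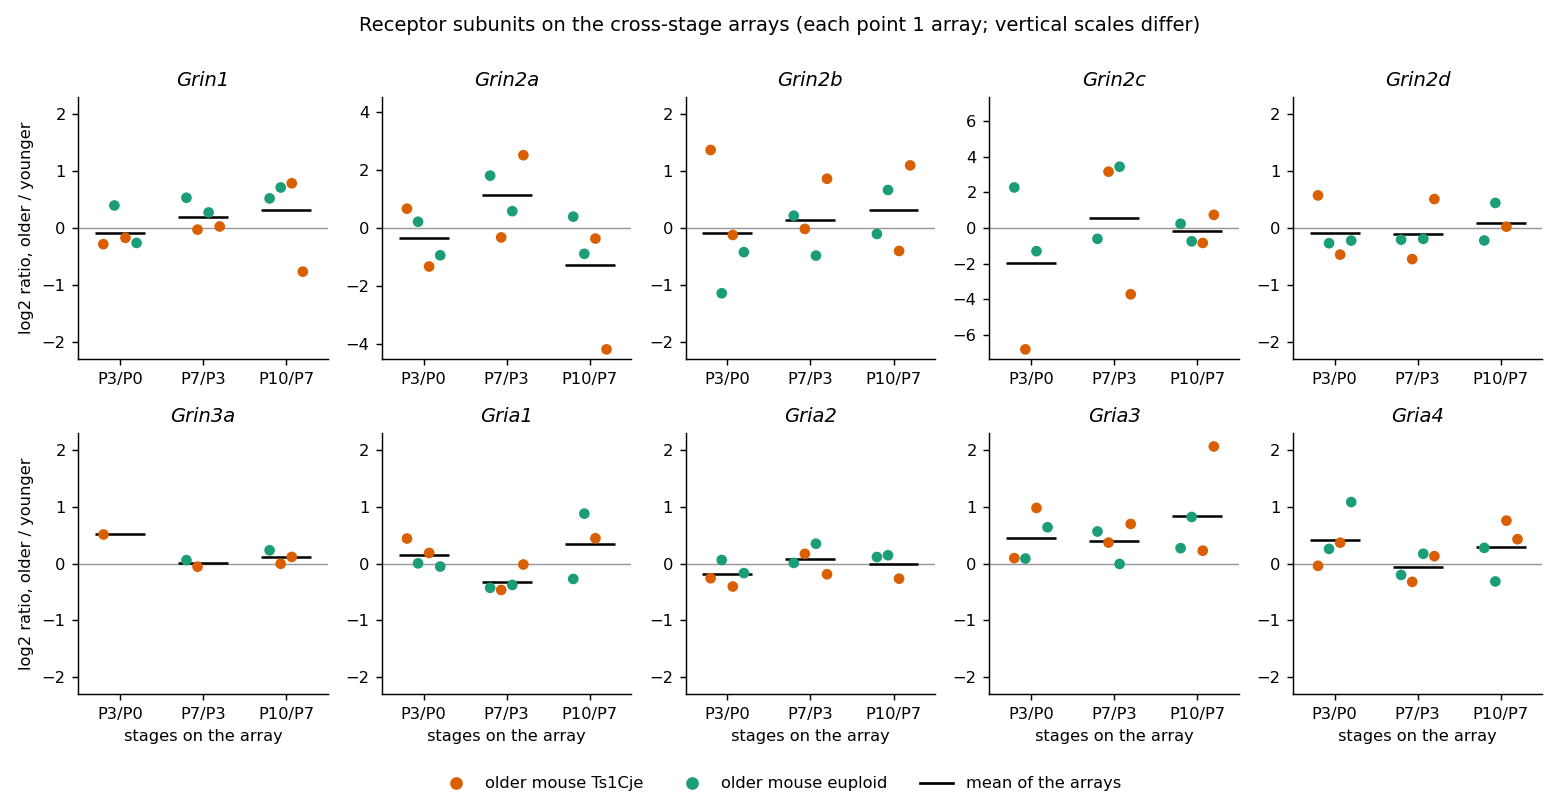
Log2 ratio of the older over the younger mouse for each subunit on the 12 cross-stage arrays (vertical axes, scales differ) by pair of stages (horizontal axes), 1 point per array, coloured by which genotype was older, bars for means. Gria3 is above 0 on 11 of 12 arrays, and the other subunits fall on both sides of 0.

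Grin1 had a log2 difference of 0.44 over P0 to P10, with an interval of the ratio from 0.781 to 2.35. Its 4 ratios between P10 and P7 were 0.79 and -0.76 on the P10/P7 arrays, and 0.52 and 0.71 on the P7/P10 arrays. The negative value came again from P10/P7 replicate 2. Without that array the P7 to P10 step was 0.62 (limma unadjusted p = 0.0127), against 0.31 (unadjusted p = 0.170) with it, and the P0 to P10 difference was 0.75 (unadjusted p = 0.0498).

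The subunits of the granule cell switch gave no change that passed the test. Grin2b, known to fall as granule neurons mature, had an interval of the P10 over P0 ratio from 0.524 to 3.25. Grin2a, known to rise, had one from 0.151 to 3.54, and Grin2c one from 0.0161 to 4.90. Each interval holds both a 1.5-fold gain and a 1.5-fold loss. Between P7 and P3 the Grin2a ratios were -0.32 and 2.51 on the P7/P3 arrays and 1.80 and 0.58 on the P3/P7 arrays, with the P7 mouse higher on 3 of 4. The fitted step was 1.14 (SE 0.635, limma unadjusted p = 0.0849). Between P10 and P7 the Grin2a ratios were -0.36 and -4.17 on the P10/P7 arrays and 0.39 and -0.88 on the P7/P10 arrays, the lowest on the sparse array P10/P7 replicate 2. That step was -1.25 with all arrays and -0.33 without that one, and the P0 to P10 difference of Grin2a was -0.45 with it and 0.47 without it, so its sign rested on 1 array. Grin2c had 3 ratios between P3 and P0, -6.80 on P3/P0 replicate 2 and 2.28 and -1.29 on the P0/P3 arrays. The older mouse was on Cy5 for -6.80 and -1.29 and on Cy3 for 2.28, so the sign went with the dye. The fitted age differences of Grin2c hold no dye term, and over these 3 arrays the dyes were not balanced. The value of -6.80 was the lowest of any subunit on any array. The fitted P0 to P3 step of Grin2c was -2.26 (SE 1.27) and, without that array, 0.35, and its P0 to P10 difference was -1.83 with it and 0.77 without it. Grin2d (interval 0.523 to 1.62), Gria1 (0.694 to 1.91) and Gria2 (0.601 to 1.395) were the 3 of 10 whose P10 over P0 interval lay within 2-fold either way, as for 6.83% of all genes. For Grin3a the interval ran from 0.0484 to 126.5.

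Gria4, of granule neurons and Bergmann glia, had a fitted step of 0.42 for P0 to P3 (limma unadjusted p = 0.0608), which was 0.20 without P0/P3 replicate 2, and a P0 to P10 ratio of 1.57 (interval 0.927 to 2.64). It was above 0 on 8 of 12 cross-stage arrays, the highest on P0/P3 replicate 2. Gria1 was lower in the P7 mouse than in the P3 mouse on 4 of 4 arrays, at -0.46, -0.02, -0.43 and -0.38, and its fitted step was -0.32 (limma unadjusted p = 0.108). Its next step, P7 to P10, had 3 values, 0.44 on a P10/P7 array and -0.27 and 0.88 on the P7/P10 arrays. They lie on both sides of 0. The fitted step of 0.38 became 0.66 without P7/P10 replicate 1 and 0.086 without P7/P10 replicate 2. On the arrays titled ASJ alone it was -0.33, where P7/P10 replicate 1 was the only array of this step. Gria2 kept within -0.40 and 0.35 on all 11 cross-stage arrays with a value.

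**Figure D5:**
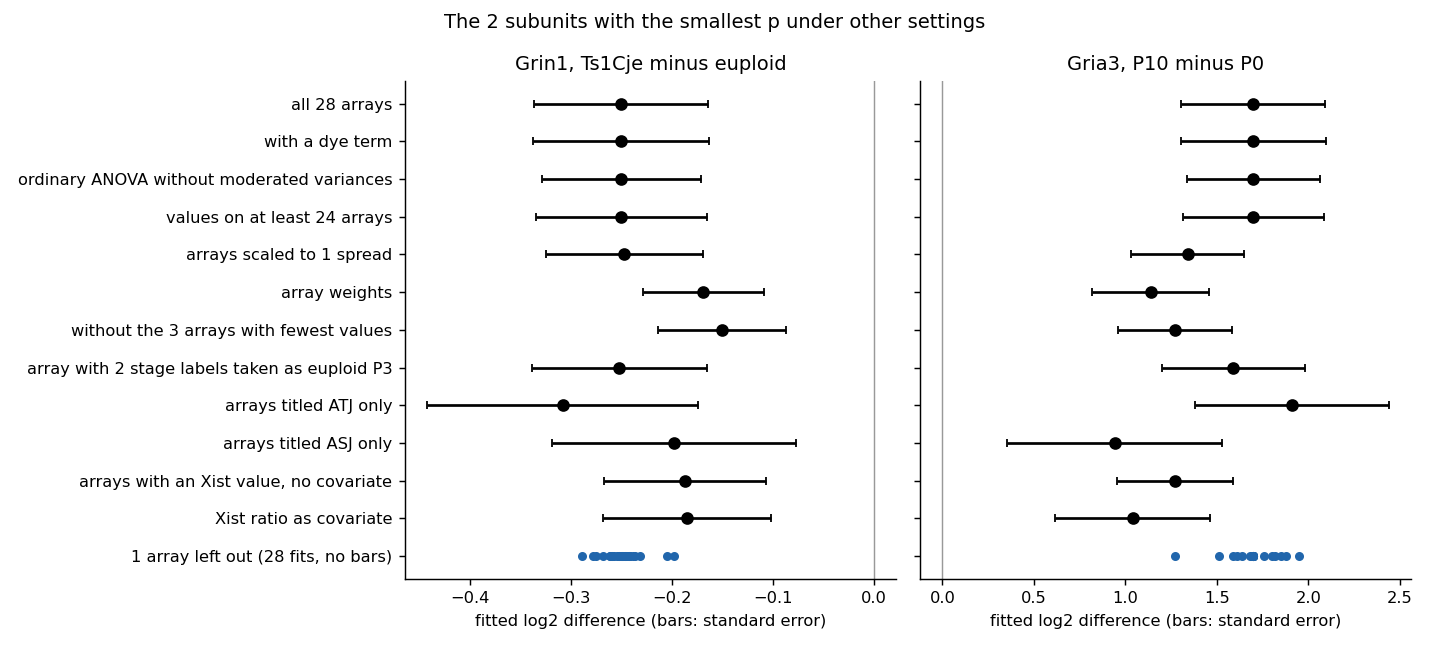
Fitted log2 difference of Grin1 (left, Ts1Cje minus euploid) and Gria3 (right, P10 minus P0) on the horizontal axes under 12 settings (rows, bars for standard errors) and with each array left out in turn (bottom row). The 12 settings kept the sign, from -0.31 to -0.15 for Grin1 and from 0.94 to 1.91 for Gria3. With 1 array left out the ranges were -0.29 to -0.20 for Grin1 and 1.27 to 1.95 for Gria3.

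The other genes of glutamate signalling were counted by list. In the mean genotype difference none of the genes tested passed, which were 13 of 15 AMPA receptor auxiliary subunits, 5 of 7 kainate and delta receptor subunits, 6 of 8 metabotropic receptors, 20 of 23 scaffolds and trafficking partners and 8 of 8 glutamate transporters. The threshold was the same adjusted p. The medians of these lists for Ts1Cje minus euploid were 0.02, 0.16, 0.0041, -0.03 and 0.08. By smallest p in limma, Grik4, a kainate receptor subunit, was at 0.52 (unadjusted p = 0.0196), Grm8, a presynaptic metabotropic receptor, at 0.37 (unadjusted p = 0.032), and Shank1, a postsynaptic scaffold, at -0.20 (unadjusted p = 0.109). Each had an adjusted p of 0.993.

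Between P3 and P7, 2 of the 13 auxiliary subunits fell and 1 of the 8 transporters rose, beside the 1.26% called over all genes. No gene of the other 3 lists passed at this step. Cacng4, which encodes a transmembrane AMPA receptor regulatory protein, was at -0.42, -1.07, -0.85 and -0.80 on the 4 arrays of these stages, P7 minus P3. Its fitted ratio was 0.579 (limma adjusted p = 0.0198). Cnih2, a cornichon that escorts AMPA receptors, was at -0.54, -1.51, -1.03 and -0.59, with a ratio of 0.529 (limma adjusted p = 0.0302). Slc1a6, the glutamate transporter of Purkinje cells, was at 0.73, 0.84, 0.89 and 0.61, with a ratio of 1.70 (limma adjusted p = 0.00999). For each of the 3 genes the P7 mouse was on the same side on 4 of 4 arrays. With the doubtful array P7/P7 replicate 4 read as euploid P3, all 3 calls were lost, at limma adjusted p of 0.176 (Cacng4), 0.208 (Cnih2) and 0.147 (Slc1a6). They were also lost on the 12 cross-stage arrays alone, at limma adjusted p of 0.222, 0.321 and 0.213 for the same genes in turn. The AMPA subunits themselves had P3 to P7 steps between -0.32 and 0.40 and none passed. Leaving out 1 array at a time, the calls of Cacng4 and Cnih2 held in 25 of 28 fits each and that of Slc1a6 in 26. All 3 were lost without P7/P3 replicate 1 and without P3/P7 replicate 2, Cacng4 also without P7/P3 replicate 2, and Cnih2 also without P3/P7 replicate 1, each time with the sign kept and limma adjusted p up to 0.16 (Cacng4), 0.222 (Cnih2) and 0.0831 (Slc1a6).

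Over P0 to P10 no gene of these 5 lists passed. By smallest p in limma, Camk2d, a kinase subunit of the postsynaptic density, was at 0.98 (unadjusted p = 0.00372) and Nsf, which binds the Gria2 product, at 1.46 (unadjusted p = 0.00729). Grm7, a presynaptic receptor, was at -1.15 (limma unadjusted p = 0.00885), Grik2, a kainate receptor subunit, at 1.92 (unadjusted p = 0.0146), and Grid1, a delta receptor subunit, at -1.98 (unadjusted p = 0.0488). Their adjusted p were 0.431 or more. Of the cell type markers, the median log2 difference over P0 to P10 was 1.06 for 8 granule neuron markers (7 above 0), 0.52 for 10 Purkinje cell markers (8 above 0) and 0.35 for 10 astrocyte and Bergmann glia markers (7 above 0). Gfap, of astrocytes, was at 2.52 (limma adjusted p = 0.247). Gabra6 was at 1.13, Calb1 at 0.50 and Mki67 at 0.10, with limma adjusted p of 0.709 or more. The medians of the other marker lists were 1.21 for erythroid cells (3 genes), 0.67 for brainstem, 0.37 for microglia and 0.16 for the oligodendrocyte lineage. They were 0.05 for granule cell precursors, 0.03 for choroid plexus and meninges, -0.36 for GABAergic interneurons and -0.49 for forebrain. Between Ts1Cje and euploid the medians of the granule neuron, Purkinje cell and astrocyte lists were 0.02, 0.06 and 0.05. Their part in the subunit ratios was not tested.

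The correlations of Ts1Cje minus euploid ratios between pairs of subunits over arrays ran from -0.499 to 0.476. The most negative were -0.499 for Grin1 with Grin2b (27 arrays), -0.428 for Grin2c with Gria1 (24) and -0.414 for Grin2a with Gria1 (25). The most positive were 0.476 for Grin2c with Gria2 (25), 0.438 for Grin2b with Grin2d (27) and 0.376 for Grin1 with Grin2a (26). Across all genes with at least 24 shared arrays, the closest to Grin1 were Spock2, a brain proteoglycan (r = 0.81, 25 arrays), and Hk1, the brain hexokinase (0.772, 25). Closest to Gria3 were Nfat5, a transcription factor of the osmotic response (0.852, 25), and Cadm3, a neuronal adhesion molecule (0.846, 27). Gria2 was nearest to Rad54b (0.729, 26) and to Gad1, which makes GABA (0.727, 26), Gria1 to Aurkc (0.844, 25), Gria4 to Iars2 (0.743, 26), Grin2a to Rpp25 (0.826, 25), Grin2b to Llcfc1 (0.843, 25) and Grin2d to Glrp1 (0.64, 26). Grin2c was nearest to Syt10 (0.881, 24), with ratios that carry its dye difference. These coefficients are descriptions over arrays that share their dye layout, stages and the same 3 sparse arrays, and each is the highest of many.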

How the data were processed

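The arrays were 2-colour pangenomic mouse arrays of 25344 probes. Per the study's methods and the deposited tables, each array gives the log2 of its Cy5 to Cy3 ratio, which the authors computed from median spot signals less the background and normalized by local LOWESS. They dropped controls, misshapen spots and those close to the surrounding background, which are missing here. Ratios were turned to Ts1Cje minus euploid by the dyes in the labels, probes were named by platform annotation, updated through RefSeq, and probes of a gene were averaged. The fit was an analysis of variance with 7 parameters (development in euploid mice and the genotype difference at each stage) in limma 3.58.1 (R 4.3.3), with moderated variances (prior degrees of freedom 2.74), for genes with values on at least 14 arrays and at least 5 residual degrees of freedom. Adjusted p used Benjamini-Hochberg over 22225 genes and unnamed probes. Sign-flip tests were exact and 2-sided. Python 3.11.15 drew the plots. The fit was tested on simulated data. The named genes of other lists were all those past the adjusted threshold and the smallest p of each list, plus markers named by value, and the nearest genes by correlation. Members and lists were chosen with earlier results of these data known. Precision is limited by the number of arrays, and p-values measure the spread between arrays of different mice. The study identifies each sample by its litter, and litter was not a term of the fit. No depth applies to ratios. Alternatives were other filters, a dye term, ordinary variances, array weights, scaling, left-out arrays, title series, stage labels, Xist, and 1 kind of array alone. Age differences within 1 genotype were read from the same fit of all arrays.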

Additional observations from a re-analysis of the deposited data

Results flagged for a closer look

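For each of the 10 subunits, the same-stage arrays of each stage were searched for a value far from the others by Dixon's ratio. The cross-stage arrays, and stages with a missing value, were not searched. In 32 groups of 4 arrays with values, none passed the 95% limit, where chance gives about 1 in 20.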

How the results depend on the processing

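In 437 counts of subunits past the adjusted threshold (10 comparisons under other settings), none differed from 0. No paired analysis was possible because each array already pairs 1 Ts1Cje with 1 euploid mouse, and the ratio is the unit. Of the single log2 ratios under other settings, 4529 kept their direction and side of the threshold, and 216 changed sign with an unadjusted limma p of 0.05 or more both ways. The most of these were in Gria3 (28), between genotypes, and in Grin2c (27). The largest value among them was the P0 to P3 step of Grin2c, -2.26 with all arrays and 0.35 without P3/P0 replicate 2, and the largest of the other sign was Grin2a over P0 to P10, 1.74 on the arrays titled ASJ alone, where all arrays gave -0.45. A further 28 no longer passed, all of Cacng4, Cnih2 and Slc1a6 at P3 to P7, which held in 10, 9 and 12 of 17 settings other than left-out arrays. The 1 that newly passed was Gfap over P0 to P10. Arrays titled ASJ alone, the smaller series with 1 cross-stage array for each step, changed a sign. Grin2b from P0 to P3 was 1.15, with P3/P0 replicate 1 (1.37) as the only array of that step, where all arrays gave -0.08. Grm8 between genotypes was -0.22, where all arrays gave 0.37. The cause was not tested. Grin3a and Grin2c are limited by missing values and dye, and P10/P7 replicate 2 and P10/P10 replicate 4 by few spots.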
